A study of Mus musculus with 48 samples.

Results

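Voltage-gated sodium and calcium channels were described across the cerebral cortex of mice that carried, or did not carry, the Q140 allele of Htt together with different Msh3 genotypes. A gene was included when its symbol belonged to the Scn alpha or beta subunits, to Cacna, to Cacnb or to Cacng, and when it had at least 100 counts summed over 48 libraries. Of 48795 genes in the deposited table, 40 matched by symbol and 38 met the minimum. They comprised 9 sodium channel alpha subunits, 4 sodium channel beta subunits, 10 calcium channel alpha1 subunits, 4 alpha2delta subunits, 4 calcium channel beta subunits and 7 gamma subunits. Just outside the minimum lay Scn4a with 53 counts and Cacng1 with 28 counts, both known from skeletal muscle, and just inside it lay Scn11a with 155 counts.

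A sodium channel is formed by 1 pore-forming alpha subunit, which opens on depolarization and carries the rising phase of the action potential, and by beta subunits, single-span membrane proteins that tune gating and bind cell adhesion molecules. A high-voltage-activated calcium channel is formed by a pore-forming alpha1 subunit with an alpha2delta and a cytoplasmic beta subunit, and it couples depolarization to transmitter release and to signalling in the cell body and dendrites. In the brain, several gamma subunits serve mainly as partners of AMPA-type glutamate receptors (the TARPs). In cortex the main channel types differ between excitatory neurons, fast-spiking interneurons and glia.

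The 6 groups, each of 8 mice (4 females and 4 males) aged 12 months on a C57BL/6 background, were Q140 x Msh3-/-, Q140 x Msh3+/-, Q140, Msh3-/-, Msh3+/- and WT. Every Q140 animal is labelled heterozygous for the knock-in, in which Htt carries an expanded CAG repeat as in Huntington's disease, and Msh3 encodes a mismatch repair protein. The extraction notes name striatum of younger mice, whereas the tissue, title and age labels of all 48 libraries give cortex at 12 months, and those labels were used. The labels do not say that 2 libraries shared an animal, and p-values measure the spread between libraries. The sample names have 27 prefixes (such as Mh3Q19) for the 48 libraries, so some libraries share a prefix. What a shared prefix stands for is not given in the labels.

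Gene-level totals ran between 37657977 and 68300525 counts per library. Markers of cortical excitatory neurons were abundant, with a summed level between 6206 and 7559 CPM (counts scaled to library size by the trimmed mean of M-values) for 6 genes, against 256 to 333 CPM for 10 genes of striatal projection neurons. Msh3 itself had medians of 96.0 CPM in Q140 x Msh3-/-, 98.3 CPM in Msh3-/-, 58.2 CPM in Q140 x Msh3+/- and 60.6 CPM in Msh3+/- libraries, against 21.5 CPM in Q140 and 22.7 CPM in WT libraries. Counts over Msh3 were thus higher in the libraries labelled Msh3-/- (log2 fold change 2.14 ± 0.032 against Msh3+/+, averaged over Q140 status, edgeR's quasi-likelihood test, Benjamini-Hochberg adjusted p = 3.81e-48). The deleted part of Msh3 is not given in the sources used here, so the count does not check the loss of protein, and the genotypes are used as labelled. Htt did not differ by the same test between Q140 carriers and non-carriers (log2 fold change -0.039 ± 0.021, adjusted p = 0.364). A pair of libraries stood apart in tissue markers. The library Msh3+/- M2 had 616 CPM summed over 6 choroid plexus genes, while the male median was 8.40 CPM, and WT M2 had 45.3 CPM summed over 4 pituitary genes, while the male median was 0.797 CPM. The sample-name prefixes of WT F3 and WT F4 are MQC72 and PQ71. Those of Q140 F4 and Q140 M4 begin with Msh3Q and those of all other libraries with Mh3Q. The labels do not say what these stand for. WT F3 and WT F4 had the 2 highest Scn8a values of all 48 (721 and 710.5 CPM) and the 2 lowest Scn3b values among WT libraries (55.6 and 51.8 CPM). They were together the 2 highest WT libraries for 7 and the 2 lowest for 6 of 38 members. Results were therefore also computed without WT F3 and WT F4, an alternative chosen after seeing the data. The part of these prefixes was not tested apart from that.

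The levels of the members are compared per gene length, with the mean and SD over all 48 libraries. They are in FPKM as deposited (fragment counts scaled to gene length and library depth). The order of members in FPKM depends on the length used for each gene and can differ from their order in counts. The span was wide. The members named below averaged between 0.0111 and 106 FPKM, 29 of 38 averaged over 1 FPKM and 16 averaged over 20 FPKM. Because the libraries are from whole tissue, fewer cells of a type and less RNA per cell cannot be told apart in any of these values.

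Among the alpha subunits of sodium channels, 3 carried nearly all of the signal. Scn8a, which encodes the main channel of mature axon initial segments and nodes of Ranvier, averaged 40.4 ± 2.02 FPKM. Scn2a1, the channel of excitatory neurons and of developing axons, averaged 36.5 ± 1.80 FPKM, and Scn1a, the main channel of fast-spiking inhibitory neurons and the gene of Dravet syndrome in humans, averaged 32.1 ± 3.05 FPKM (SD, n = 48 for each). They made up 35.4%, 31.95% and 28.2% of the summed FPKM of the family. Scn3a, whose expression is highest in the embryonic brain, averaged 3.66 ± 0.305 FPKM. Scn7a, which encodes a sodium sensor rather than a voltage-gated channel, averaged 0.998 ± 0.231 FPKM. The channels of peripheral sensory neurons were the lowest: Scn10a averaged 0.0789 ± 0.0372 FPKM, Scn9a averaged 0.0580 ± 0.0197 FPKM and Scn11a averaged 0.0111 ± 0.0084 FPKM. Scn11a had between 0 and 8 counts per library and 0 counts in 7 libraries, did not pass the filter on low counts and was not tested. Scn9a (1752 counts in all) shares 180 exonic bases with Gm13629, an opposite-strand gene with 20591 counts. The library kit was stranded, but the strand setting of the counting is not given in the sources used here, so Scn9a counts are uncertain.

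Of the beta subunits, Scn2b, which is disulfide-linked to alpha subunits, averaged 79.8 ± 3.76 FPKM. Scn4b, the subunit known for resurgent sodium current in fast-firing neurons, averaged 41.2 ± 5.90 FPKM, and Scn3b averaged 12.9 ± 1.87 FPKM (SD, n = 48). Scn2b, Scn4b, Scn3b, Scn10a and Scn11a lie on chromosome 9 together with Cacna2d2, and Scn2b (chr9:45117782-45130070) and Scn4b (chr9:45138395-45154152) are neighbours on the plus strand of GRCm38.

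Among calcium channel alpha1 subunits the presynaptic types led in FPKM, but not in counts. The median count per library was 19512 for Cacna1e, 16312 for Cacna1a and 9965.5 for Cacna1b. The length behind the FPKM was 25131 bases for Cacna1e and 11418 bases for Cacna1a. Cacna1a (P/Q-type) averaged 29.5 ± 1.30 FPKM and Cacna1b (N-type) averaged 21.2 ± 1.54 FPKM. The low-voltage-activated T-type genes Cacna1i, Cacna1g and Cacna1h averaged 18.9 ± 1.45, 15.2 ± 1.26 and 5.30 ± 0.664 FPKM, and Cacna1e (R-type) averaged 16.3 ± 0.952 FPKM. The neuronal L-type genes Cacna1d and Cacna1c averaged 9.16 ± 0.608 and 5.75 ± 0.400 FPKM. Their order was the other way in counts, with medians of 4055.5 for Cacna1d and 5974.5 for Cacna1c. Cacna1s, the L-type channel of skeletal muscle, averaged 0.129 ± 0.0329 FPKM, and Cacna1f, the L-type channel of photoreceptors, averaged 0.0324 ± 0.0144 FPKM (SD, n = 48 throughout).

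Of the accessory subunits, Cacna2d3 averaged 31.98 ± 2.49 FPKM, Cacna2d1, a target of gabapentin, averaged 25.1 ± 1.38 FPKM, Cacna2d2, also a gabapentin target, averaged 6.95 ± 0.486 FPKM and Cacna2d4, known from the retina, averaged 0.247 ± 0.0444 FPKM. The beta subunits carry alpha1 to the membrane. In FPKM, Cacnb3 led them at 106 ± 5.88, followed by Cacnb4 at 44.8 ± 3.30, Cacnb1 at 35.3 ± 2.53 and Cacnb2 at 4.03 ± 0.197. In counts Cacnb4 lay above Cacnb3, with medians of 19362 and 16156 per library. Among gamma subunits, the AMPA receptor partner Cacng7 averaged 105 ± 5.2 FPKM. The other AMPA receptor partners Cacng3, Cacng2 (stargazin), Cacng8, Cacng4 and Cacng5 averaged 48.8 ± 3.13, 23.6 ± 1.58, 19.2 ± 1.06, 5.08 ± 0.440 and 1.495 ± 0.191 FPKM. Cacng6, known from skeletal muscle, averaged 0.374 ± 0.127 FPKM (SD, n = 48 throughout).

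**Figure D1:**
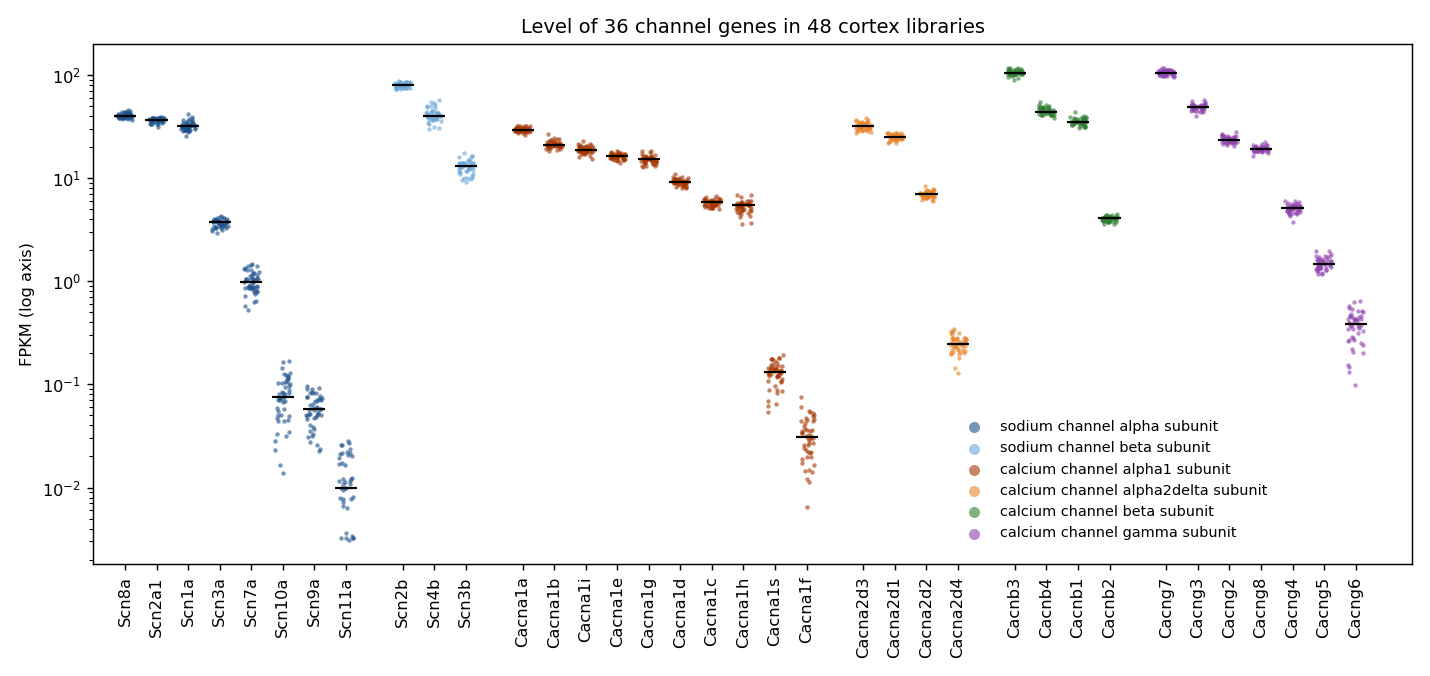
Deposited FPKM (log axis) of 36 of the 38 members in 48 libraries, grouped by subunit family and ordered by mean within a family; points are libraries and bars are medians. Those drawn span 0.0111 to 106 FPKM on average, and the 7 libraries in which Scn11a had 0 counts are not drawn.

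When the members were put in order of mean FPKM, the ranges of 48 libraries overlapped between all but 4 of 37 pairs of neighbours. Gaps lay, among others, between Cacng7 and Scn2b, Scn2b and Cacng3, and Scn3a and Cacng5. Cacnb3 was above Cacng7 in 22 of 48 libraries and Scn4b was above Scn8a in 25 of 48 libraries, so the order of these neighbours did not hold from library to library. Among the 29 members above 1 FPKM, the SD was 4.41% to 14.4% of the mean, with a median of 6.96%. The lowest value was that of Cacna1a, and the highest were those of Scn3b (14.4%) and Scn4b (14.3%).

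After genotype and sex were fitted, the biological coefficient of variation was 4.38% for Scn2b, 4.58% for Cacna1a and 4.60% for Cacnb3, at percentiles 5.45, 7.85 and 8.01 of 19547 tested genes. It was 12.8% for Scn3b and 12.54% for Scn4b. The low-count members varied more, up to 35.8% for Scn10a, whose median was 25 counts per library.

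The design first sets Q140 carriers against non-carriers. None of the 37 tested members was called at an adjusted p under 0.05 in Q140 carriers against non-carriers, averaged over 3 Msh3 genotypes (edgeR's quasi-likelihood test with Benjamini-Hochberg adjustment over 19547 genes, of which 1.47% were called). DESeq2 and limma voom with a random block also called 0 members. DESeq2 gave no adjusted p for 6 of the 38 members, where edgeR gave none for 1, so it could not call those. At an unadjusted p under 0.05, edgeR, DESeq2 and limma voom gave 7 members each, and in edgeR these were 18.9% of the members beside 15.1% of all genes. The median log2 fold change of the members was 0.0025, beside -0.00084 over all genes tested, with 19 members above 0 and 18 below. For the 29 members above 1 FPKM, the estimated change ran between -5.87% and 9.25%, and their 95% intervals on the log2 scale lay between -0.18 and 0.24. By family, the unadjusted count was 1 of 8 tested sodium channel alpha subunits, 2 of 4 sodium channel beta subunits, 1 of 10 alpha1 subunits, 1 of 4 alpha2delta subunits, 0 of 4 calcium channel beta subunits and 2 of 7 gamma subunits.

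The smallest p belonged to Cacna1f, the X-linked photoreceptor L-type gene. Its level was at the edge of detection, with 3 to 40 counts per library (median 13.5). The lowest, median and highest values were 0.146, 0.380 and 0.681 CPM in Q140 x Msh3-/-, 0.217, 0.400 and 0.513 CPM in Q140 x Msh3+/-, 0.111, 0.274 and 0.403 CPM in Q140, 0.130, 0.220 and 0.330 CPM in Msh3-/-, 0.102, 0.281 and 0.487 CPM in Msh3+/-, and 0.0590, 0.207 and 0.324 CPM in WT libraries. Carriers overlapped with non-carriers, 19 of 24 carriers lay above the non-carrier median, and 3 lay above every non-carrier. The difference was 0.54 ± 0.16 on the log2 scale (95% interval 0.22 to 0.87, adjusted p = 0.0765, edgeR's quasi-likelihood test). It had the same direction in 6 of 6 strata of Msh3 genotype and sex and in 5 of 6 plate columns. Strata and plate columns, here and below, divide the same libraries as the contrast, so their agreement is not separate support. Without the library Q140 F2 or without Q140 x Msh3-/- F1 the call was made (lowest adjusted p = 0.0438).

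Cacna2d3, which encodes an alpha2delta subunit, had the next smallest p. Its lowest, median and highest values were 107, 116 and 135 CPM in Q140 x Msh3-/-, 101, 111 and 129 CPM in Q140 x Msh3+/- and 103, 113 and 121 CPM in Q140 libraries, against 104, 122 and 129 CPM in Msh3-/-, 114, 121 and 143 CPM in Msh3+/- and 111, 122 and 136 CPM in WT libraries. The groups overlapped, with 19 of 24 carriers below the non-carrier median. The averaged log2 difference was -0.087 ± 0.029 (adjusted p = 0.116), and the pairwise ones were -0.018 ± 0.051 with Msh3-/-, -0.13 ± 0.051 with Msh3+/- and -0.11 ± 0.051 with Msh3+/+. The difference was above 0 in 2 of 6 strata of Msh3 genotype and sex, which ran between -0.22 and 0.0049.

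Scn3b had lowest, median and highest values of 54.0, 73.8 and 95.1 CPM in Q140 x Msh3-/-, 57.6, 75.7 and 84.8 CPM in Q140 x Msh3+/-, 70.6, 77.2 and 87.2 CPM in Q140, 56.3, 65.4 and 76.2 CPM in Msh3-/-, 52.6, 68.5 and 89.4 CPM in Msh3+/- and 51.8, 71.2 and 90.02 CPM in WT libraries. Of the carriers, 21 of 24 lay above the non-carrier median, with overlapping ranges (log2 difference 0.13 ± 0.057, adjusted p = 0.265). The direction was the same in 6 of 6 strata of Msh3 genotype and sex and in 6 of 6 plate columns, of which column 1 held 7 carriers and 1 non-carrier.

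For Cacng3, a TARP of excitatory synapses, medians were 133, 132 and 136 CPM in Q140 x Msh3-/-, Q140 x Msh3+/- and Q140 libraries, against 138, 139 and 139 CPM in Msh3-/-, Msh3+/- and WT libraries, and single libraries ran between 110 and 157 CPM (log2 difference -0.064 ± 0.028, adjusted p = 0.250). For Scn8a the medians in the same order were 641, 616 and 626 CPM with Q140 and 628, 644 and 657 CPM without it, and single libraries ran between 566 and 721 CPM (log2 difference -0.047 ± 0.021, adjusted p = 0.271). For Cacng5 they were 6.04, 6.02 and 5.38 CPM with Q140 and 5.40, 5.51 and 5.61 CPM without it, and single libraries ran between 4.42 and 7.66 CPM (log2 difference 0.10 ± 0.047, adjusted p = 0.269). In all 3 genes carriers and non-carriers overlapped. Scn2b, the last of the 7, had a log2 difference of 0.039 ± 0.018 (adjusted p = 0.272).

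**Figure D2:**
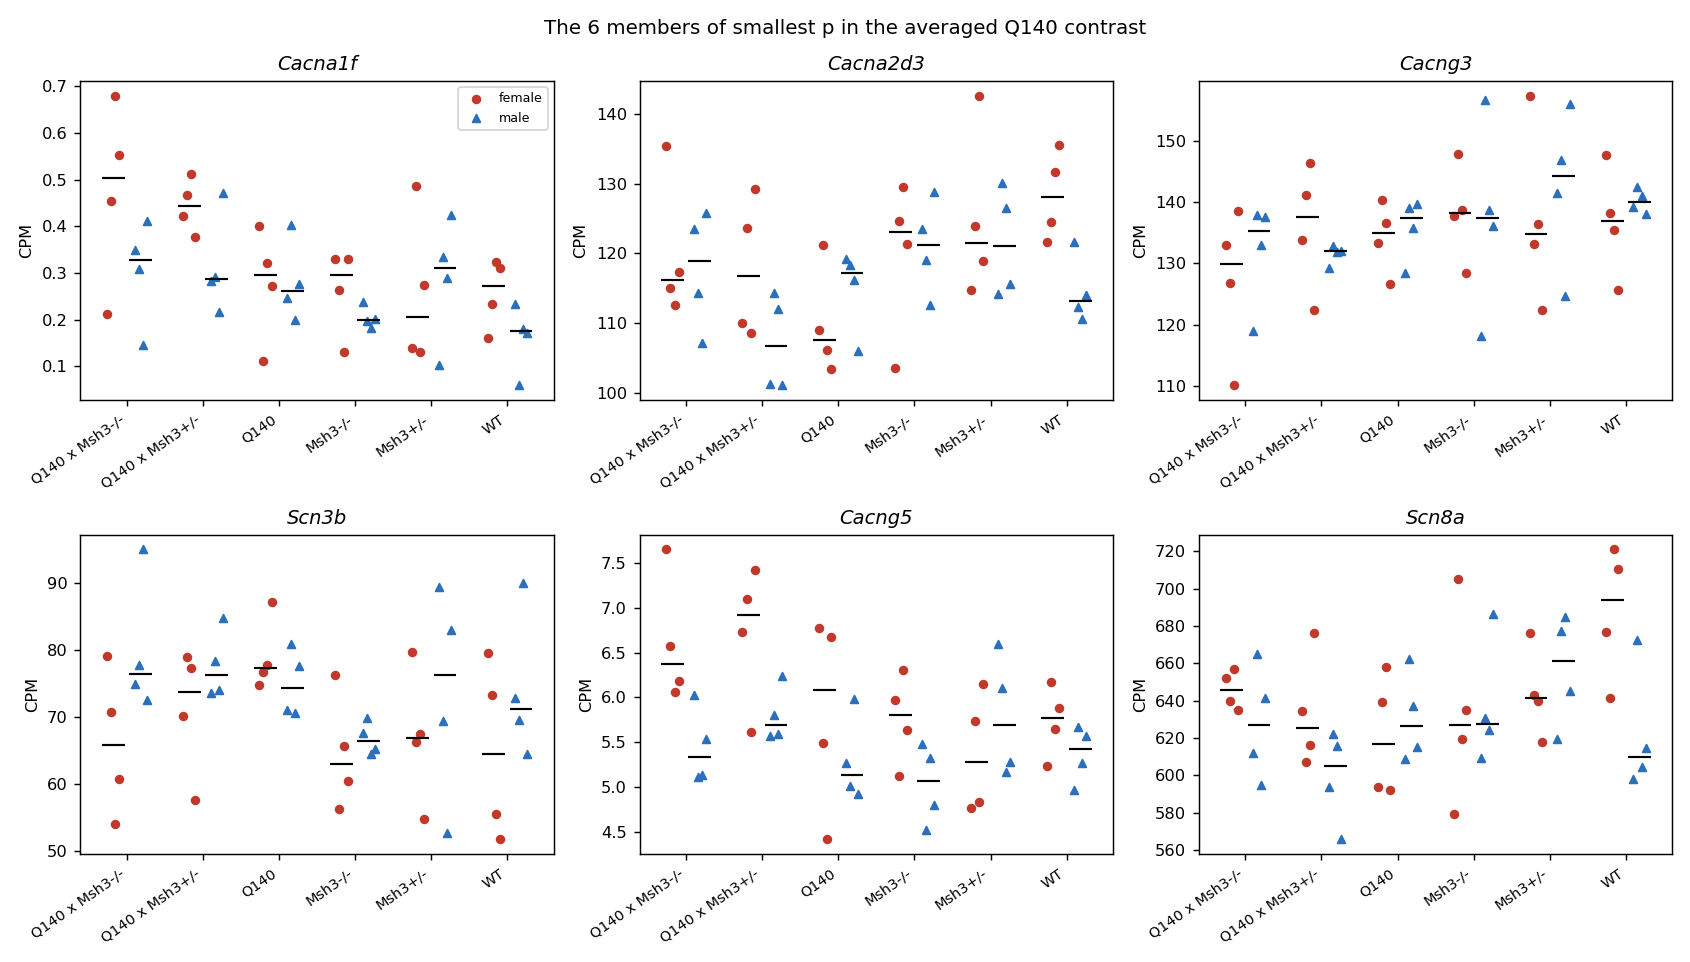
CPM by genotype and sex of the 6 members of smallest p in the averaged Q140 contrast; points are libraries, circles females and triangles males, and bars are medians of 4. Carriers (3 groups on the left) and non-carriers overlap for each gene, and Scn3b has 21 of 24 carriers above the non-carrier median.

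Within single Msh3 genotypes the Q140 comparisons called 0 members as well. In Q140 against WT, edgeR called 0.102% of all genes at the adjusted threshold and 8.80% at an unadjusted p under 0.05, and 2 members passed the unadjusted one. The 4 members of smallest p were Cacna2d3 (log2 difference -0.11 ± 0.051), Cacng2 (-0.10 ± 0.048), Cacnb4 (-0.090 ± 0.051) and Scn8a (-0.064 ± 0.037), with the smallest adjusted p at 0.529. Without WT F3 and WT F4 these 4 estimates were -0.067, -0.070, -0.026 and -0.022. In Q140 x Msh3+/- against Msh3+/-, the shares of all genes were 0.0512% and 7.77%, and 4 members passed unadjusted. These were Cacna2d3 (-0.13 ± 0.051), Scn1a (-0.14 ± 0.064), Cacnb2 (-0.076 ± 0.036) and Scn8a (-0.078 ± 0.037), with the smallest adjusted p at 0.496. In Q140 x Msh3-/- against Msh3-/-, the shares were 0.0205% and 6.77%, and 2 members passed unadjusted. The 4 of smallest p were Cacna1f (0.74 ± 0.27), Cacng5 (0.16 ± 0.081), Cacng3 (-0.091 ± 0.048) and Scn3b (0.15 ± 0.099), with the smallest adjusted p at 0.703. DESeq2 called 0 members in all 3 comparisons, with 2, 5 and 1 unadjusted, and limma voom called 0, with 2, 5 and 2 unadjusted. In Q140 against WT, DESeq2 gave no adjusted p for 2 of the 38 members.

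Cacna2d1 is the member nearest to the edited Htt locus. It lies at chr5:15934691-16374511, 18.4 Mb from Htt (chr5:34761740-34912534, GRCm38), and no member lies on the chromosome of Msh3. Its log2 difference between carriers and non-carriers was -0.038 ± 0.023 (adjusted p = 0.447).

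The design then sets Msh3 genotypes against each other, with and without Q140. Cacnb3, the calcium channel beta subunit of highest FPKM, rose in Msh3-/- against Msh3+/+, averaged over Q140 status. It was the only member called by edgeR in any of the genotype comparisons. Its lowest, median and highest values were 320, 345 and 365 CPM in Q140 x Msh3-/- against 293, 319 and 338 CPM in Q140 libraries, and 316, 331 and 366 CPM in Msh3-/- against 281, 316 and 335 CPM in WT libraries. The ranges overlapped, but 15 of 16 Msh3-/- libraries lay above the Msh3+/+ median and 8 lay above every Msh3+/+ library. The averaged increase was 7.53% (log2 fold change 0.10 ± 0.023, 95% interval 0.059 to 0.15, adjusted p = 0.0190, edgeR's quasi-likelihood test). In this contrast 0.215% of all genes were called, against 1 of 37 members (2.703%). The direction was the same in 4 of 4 strata of Q140 status and sex, between 0.086 and 0.14 on the log2 scale, and in 5 of 5 plate columns that held both genotypes, between 0.075 and 0.20.

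The call was close to the threshold. Without the library Q140 M4 the adjusted p was 0.0513, and without the 10 libraries whose choroid plexus or pituitary marker score lay over 3 log2 units above the median it was 0.0575 with a log2 fold change of 0.12. Without WT F3 and WT F4 it was 0.0524 with a log2 fold change of 0.097, and WT F3 had the lowest Cacnb3 value of all 48 libraries (281 CPM). In the other 31 fits that each left out 1 library of this contrast, Cacnb3 was called. The libraries WT F3, WT F4, Q140 F4 and Q140 M4, whose name prefixes do not begin with Mh3Q, are all Msh3+/+. Their Cacnb3 levels were 89.6, 104.7, 102.6 and 93.5 FPKM. No Msh3-/- library has such a prefix, and the part of the prefix in the call was not tested.

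The pairwise comparisons share the WT or the Q140 libraries, and all of them share libraries with the averaged contrast. In each of them Cacnb3 had a positive estimate without a call. It was 0.12 ± 0.032 in Q140 x Msh3-/- against Q140 (adjusted p = 0.218), 0.11 ± 0.032 in Q140 x Msh3+/- against Q140 (adjusted p = 0.559), 0.088 ± 0.032 in Msh3-/- against WT (adjusted p = 0.349) and 0.055 ± 0.032 in Msh3+/- against WT (adjusted p = 0.963). In the heterozygous groups the lowest, median and highest values were 327, 338 and 362 CPM in Q140 x Msh3+/- and 319, 325 and 338 CPM in Msh3+/- libraries.

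Marker lists of other cell types were read in the same averaged contrast, in which 0.215% of all genes were called and 14.9% passed unadjusted. Of 7 oligodendrocyte precursor genes, 1 was called lower, with a summed level of 159 to 193 CPM in Msh3-/- and 160 to 188 CPM in Msh3+/+ libraries, and 0 genes of the other 14 marker lists were called. At an unadjusted p under 0.05, all 3 haemoglobin genes passed, each higher in Msh3-/- (median log2 fold change 1.64, summed level 0.135 to 21.8 CPM in Msh3-/- and 0.0699 to 7.18 CPM in Msh3+/+ libraries). Of 6 excitatory neuron genes 4 passed, 3 of the 6 estimates lay above 0, and the summed level was 6506 to 7535 CPM (median 7000) in Msh3-/- and 6206 to 7352 CPM (median 6685) in Msh3+/+ libraries. Of 5 hippocampal neuron genes 2 passed and all 5 estimates lay above 0 (median 0.24), and 3 genes each passed for parvalbumin interneurons, striatal neurons and oligodendrocyte precursors. The part of these cells in the Cacnb3 difference was not tested. Within groups and sexes, Cacnb3 had no correlation past the adjusted threshold with any of 15 marker scores, and the largest was with excitatory neurons (r = -0.313, adjusted p = 0.297, permutation test over 48 libraries).

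Beside Cacnb3, the members of smallest p in Msh3-/- against Msh3+/+ included Cacng6 (log2 fold change 0.39 ± 0.17, adjusted p = 0.277) and Cacna2d2 (0.056 ± 0.029, adjusted p = 0.349). Including Cacnb3, 3 members (8.11%) passed an unadjusted p under 0.05, all higher, beside 14.9% of all genes. DESeq2 and limma voom called 1 member each, with 2 and 3 unadjusted. For 10 of the 38 members DESeq2 gave no adjusted p in this contrast.

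In the 4 pairwise Msh3 comparisons edgeR, DESeq2 and limma voom called 0 members. In Msh3-/- against WT, 0.113% of all genes were called and 10.8% passed unadjusted, with 3 members in each of the 3 tools. The 3 members of smallest p were Cacnb3, Cacng2 (-0.11 ± 0.048) and Cacnb4 (-0.11 ± 0.051). In Msh3+/- against WT the shares were 0.0307% and 4.96%, with 0 members unadjusted in each tool, and Cacnb3 was joined by Cacng2 (-0.088 ± 0.048), Cacna1c (0.082 ± 0.047) and Cacna1a (0.054 ± 0.032). In Q140 x Msh3-/- against Q140 they were 0.102% and 6.86%, with 2, 2 and 3 members unadjusted in edgeR, DESeq2 and limma voom, and beside Cacnb3 the members of smallest p included Cacnb2 (-0.071 ± 0.036) and Cacna1f (0.47 ± 0.26). In Q140 x Msh3+/- against Q140 they were 0.0307% and 6.22%, with 4, 3 and 3 members unadjusted, and Cacnb3 was followed by Cacnb2 (-0.081 ± 0.036), Cacng5 (0.17 ± 0.080) and Cacng6 (0.49 ± 0.24).

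The interaction of Q140 with Msh3 genotype asks whether the Q140 difference itself changes with Msh3. No member and 0% of all genes were called for either Msh3 genotype, by any of the 3 tools, and 0 members passed unadjusted in any of them, beside 3.30% (Msh3+/-) and 3.20% (Msh3-/-) of all genes in edgeR. The smallest p values belonged to Cacnb2 (-0.095 ± 0.050), Scn10a (-0.67 ± 0.39), Cacna2d2 (0.092 ± 0.058) and Cacng2 (0.11 ± 0.068) for Msh3+/-. They belonged to Cacnb4 (0.12 ± 0.072), Scn1a (0.15 ± 0.091), Cacng2 (0.10 ± 0.068) and Cacna2d1 (0.082 ± 0.056) for Msh3-/-, on the log2 scale. Without WT F3 and WT F4 the Cacnb4 and Scn1a estimates for Msh3-/- were 0.057 and 0.063. For the 29 members above 1 FPKM the 95% intervals of these interactions lay between -0.35 and 0.40.

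**Figure D3:**
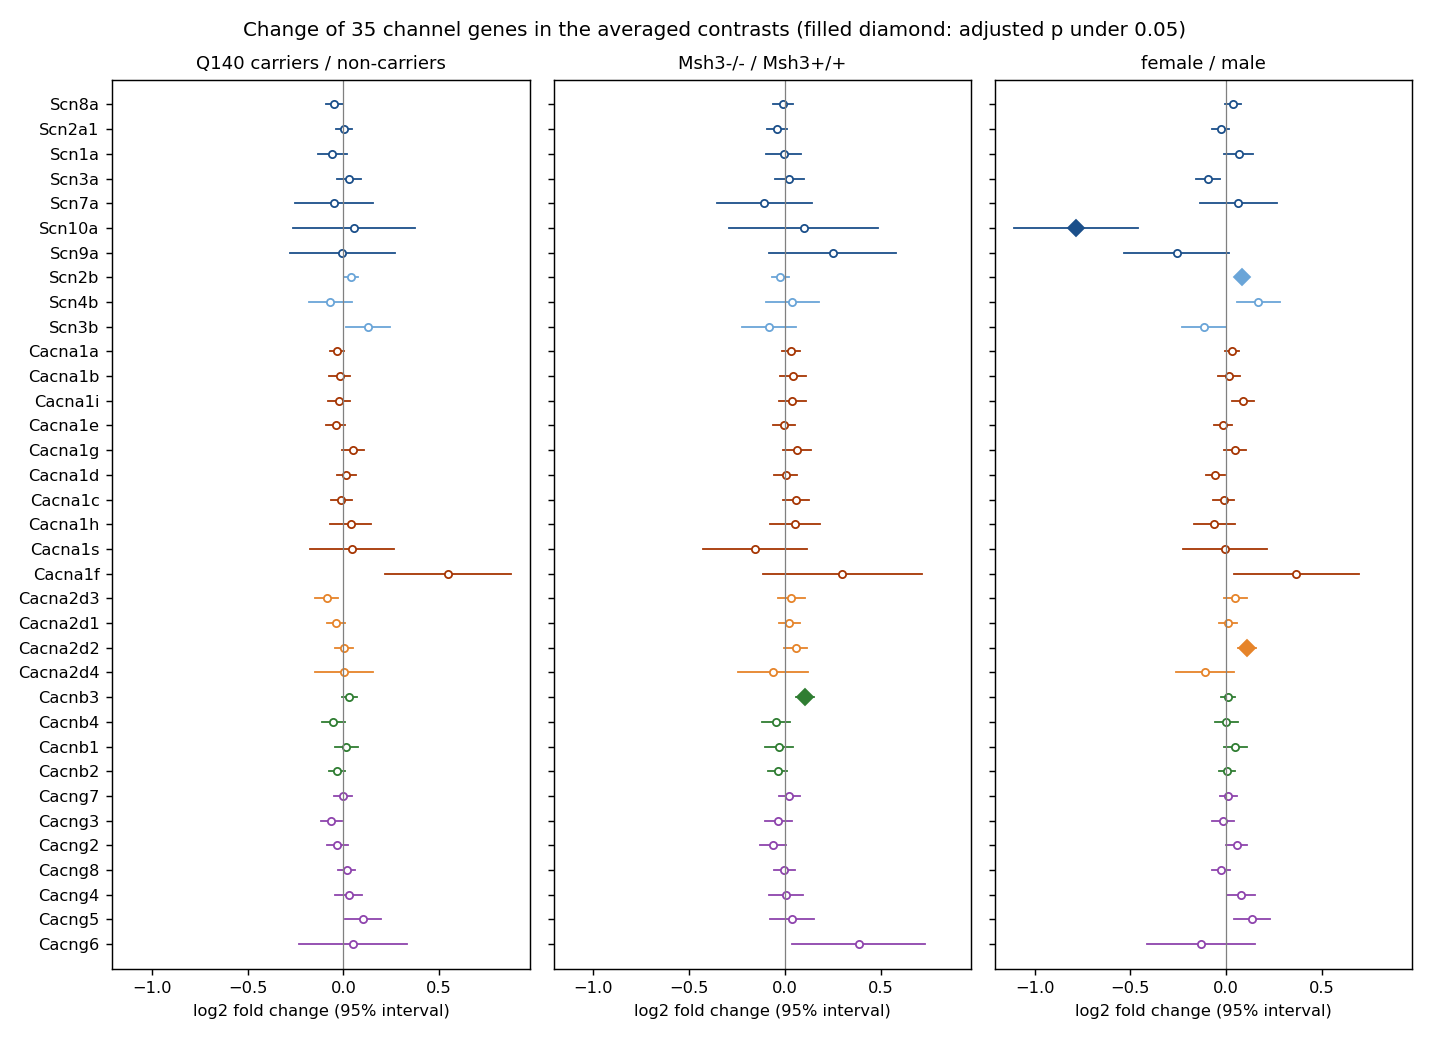
Log2 fold change with 95% interval of 35 of the 37 tested members in the averaged contrasts (Q140 carriers over non-carriers, Msh3-/- over Msh3+/+, female over male), coloured by family as in the plot of levels; filled diamonds have an adjusted p under 0.05. Cacnb3 is called for Msh3-/-, Scn10a, Scn2b and Cacna2d2 are called for sex, and no member is called for Q140.

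Sex was balanced over all groups, and it gave the largest number of calls among the members. Over plate columns it was uneven, with 6 females and 2 males in column 1 and 2 females and 6 males in column 6. Scn2b and Cacna2d2 rose in females and Scn10a fell, averaged over genotypes (3 of 37 members, 8.11%, beside 4.28% of all genes, edgeR's quasi-likelihood test with Benjamini-Hochberg adjustment). Limma voom called 3 members and DESeq2 called 5. At an unadjusted p under 0.05 there were 12 members (32.4%, 7 higher and 5 lower) beside 17.4% of all genes, and 11 and 10 members in DESeq2 and limma voom.

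Scn2b had lowest, median and highest values of 328, 375 and 398 CPM in 24 female libraries, against 329, 359 and 383 CPM in 24 male libraries. The ranges overlapped, 22 of 24 females lay above the male median and 7 lay above every male. The female increase was 6.01% (log2 fold change 0.084 ± 0.018, adjusted p = 0.00211), with the same direction in 6 of 6 genotypes and in 6 of 6 plate columns. By plate column the log2 difference ran between 0.0075, in column 1, and 0.11.

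Cacna2d2, the alpha2delta gene disrupted in ducky mice, had 49.0, 57.3 and 66.5 CPM in female libraries, against 48.1, 53.2 and 59.2 CPM in male libraries. The ranges overlapped, with 20 of 24 females above the male median and 8 above every male. The female increase was 7.93% (log2 fold change 0.11 ± 0.024, adjusted p = 0.00281), again in 6 of 6 genotypes and 6 of 6 plate columns.

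Scn10a, the sensory neuron channel, had 0.0890, 0.338 and 0.801 CPM in female libraries, against 0.303, 0.622 and 1.06 CPM in male libraries. Of the females, 21 of 24 lay below the male median and 10 lay below every male, with overlapping ranges. By the fit, the level in females fell by 41.9% (log2 fold change -0.78 ± 0.16, adjusted p = 0.00174), in 6 of 6 genotypes and 6 of 6 plate columns. The gene had only 4 to 64 counts per library. Without the 10 libraries whose choroid plexus or pituitary score lay over 3 log2 units above the median, 9 of them male, the log2 fold change was -0.62 and the adjusted p was 0.0884.

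In group terms, the lowest, median and highest Scn2b values were 329, 365 and 398 CPM in Q140 x Msh3-/-, 337, 369 and 390 CPM in Q140 x Msh3+/-, 359, 372 and 388 CPM in Q140, 328, 352 and 395 CPM in Msh3-/-, 334, 362 and 378 CPM in Msh3+/- and 336, 369 and 373 CPM in WT libraries. Those of Cacna2d2 were 51.6, 55.03 and 60.7 CPM in Q140 x Msh3-/-, 51.3, 54.5 and 66.5 CPM in Q140 x Msh3+/-, 48.1, 53.5 and 57.8 CPM in Q140, 51.1, 57.5 and 60.3 CPM in Msh3-/-, 48.2, 54.3 and 58.6 CPM in Msh3+/- and 51.3, 54.0 and 60.2 CPM in WT libraries. Those of Scn10a were 0.289, 0.559 and 1.06 CPM in Q140 x Msh3-/-, 0.2, 0.461 and 0.555 CPM in Q140 x Msh3+/-, 0.0890, 0.511 and 1.05 CPM in Q140, 0.148, 0.495 and 0.754 CPM in Msh3-/-, 0.284, 0.643 and 0.947 CPM in Msh3+/- and 0.108, 0.428 and 0.831 CPM in WT libraries. For each of these 3 genes the ranges of all 6 genotypes overlapped.

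**Figure D4:**
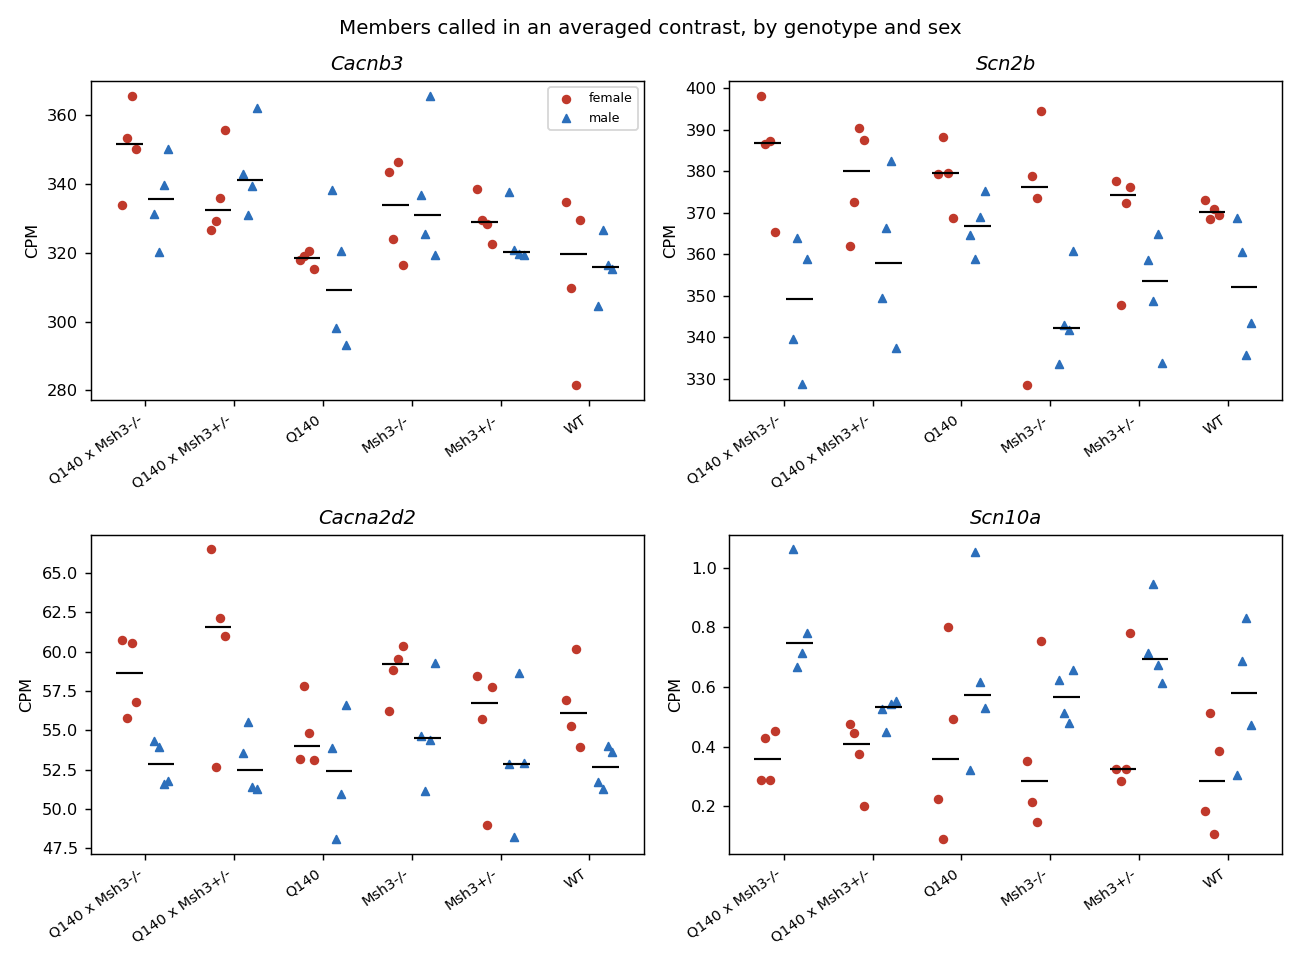
CPM by genotype and sex of the 4 members called in an averaged contrast; points are libraries, circles females and triangles males, and bars are medians of 4; each gene has its own axis. Cacnb3 lies higher in both Msh3-/- groups than in the Msh3+/+ group of the same Q140 status, and the female median exceeds the male median for Scn2b and Cacna2d2 and lies below it for Scn10a in all 6 genotypes.

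The next members by p were Cacna1i (log2 fold change 0.090 ± 0.029, adjusted p = 0.0624), Scn3a (-0.095 ± 0.031, adjusted p = 0.0640) and Scn4b, the neighbour of Scn2b (0.17 ± 0.056, adjusted p = 0.0765). DESeq2 called Cacna1i and Scn4b in addition, and edgeR called Cacna1i with plate column as a factor (adjusted p = 0.025) or without WT M2 and Msh3+/- M2 (adjusted p = 0.0445). Scn3b, on the same chromosome, had a log2 fold change of -0.12 ± 0.057 (adjusted p = 0.270).

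Marker lists moved with sex too, in a contrast that called 4.28% of all genes. Of 8 oligodendrocyte genes, 4 were called higher in females, and their summed level ran between 1556 and 2424 CPM (median 1908) in female and between 1353 and 2027 CPM (median 1707) in male libraries. All 3 haemoglobin genes of the blood list were higher in females (summed median 2.702 CPM in females and 0.661 CPM in males), and 2 of 3 tested pituitary genes were lower (summed median 0.684 CPM in females and 0.797 CPM in males, with Prl at 0 in 22 libraries). Among the other lists, 2 of 7 microglia genes and 1 gene each of endothelial cells, oligodendrocyte precursors, parvalbumin interneurons and striatal neurons were higher, and 1 gene each of excitatory neurons and astrocytes was lower. Within groups and sexes Scn2b, Cacna2d2 and Scn10a had r = 0.276, 0.174 and 0.109 with the oligodendrocyte score (adjusted p = 0.319, 0.645 and 0.708, permutation test). The part of these cells in the sex differences was not tested.

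The interaction of Q140 with sex called 0 members and 0% of all genes in edgeR, DESeq2 and limma voom. At an unadjusted p under 0.05, 0 members passed in edgeR and DESeq2 and 2 in limma voom, beside 2.58% of all genes in edgeR. The 4 members of smallest p were Scn9a (0.50 ± 0.27), Cacnb1 (-0.092 ± 0.058), Cacng5 (0.14 ± 0.092) and Cacng6 (0.41 ± 0.28) on the log2 scale.

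The promoters of the 4 called members are shown because their counts moved with genotype or sex. Of 38 members, 28 had a promoter in the RefSeq table (GRCm38.p6), which spans 250 bases before to 50 bases after a transcript start. Each is printed 5′ to 3′ on the strand of the gene, in lower case. Capitals mark the GC box GGGCGG, searched on both strands together with the TATA box TATAAA, the cyclic AMP response element TGACGTCA and the nuclear receptor half-site AGGTCA.
Cacnb3, chr15:98632078-98632377, plus strand: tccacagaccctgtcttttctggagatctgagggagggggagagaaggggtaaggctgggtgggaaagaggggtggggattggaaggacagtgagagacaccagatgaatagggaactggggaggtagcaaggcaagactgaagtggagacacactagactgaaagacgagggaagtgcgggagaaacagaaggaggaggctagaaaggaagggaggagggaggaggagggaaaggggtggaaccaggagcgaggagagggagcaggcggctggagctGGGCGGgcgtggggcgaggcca
Scn2b, chr9:45117626-45117925, plus strand: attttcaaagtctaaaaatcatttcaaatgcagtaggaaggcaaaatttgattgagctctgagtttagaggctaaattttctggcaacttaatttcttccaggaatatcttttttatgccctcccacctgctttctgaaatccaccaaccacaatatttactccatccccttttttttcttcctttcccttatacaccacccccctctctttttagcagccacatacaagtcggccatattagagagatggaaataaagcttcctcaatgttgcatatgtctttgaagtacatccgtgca
Cacna2d2, chr9:107399630-107399929, plus strand: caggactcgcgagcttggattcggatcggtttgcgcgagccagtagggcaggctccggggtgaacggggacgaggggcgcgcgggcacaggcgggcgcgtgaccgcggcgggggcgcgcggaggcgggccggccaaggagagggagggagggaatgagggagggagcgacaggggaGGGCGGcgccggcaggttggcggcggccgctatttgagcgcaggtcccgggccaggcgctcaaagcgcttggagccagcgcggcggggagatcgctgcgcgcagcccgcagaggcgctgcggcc
Scn10a, chr9:119718983-119719282, minus strand: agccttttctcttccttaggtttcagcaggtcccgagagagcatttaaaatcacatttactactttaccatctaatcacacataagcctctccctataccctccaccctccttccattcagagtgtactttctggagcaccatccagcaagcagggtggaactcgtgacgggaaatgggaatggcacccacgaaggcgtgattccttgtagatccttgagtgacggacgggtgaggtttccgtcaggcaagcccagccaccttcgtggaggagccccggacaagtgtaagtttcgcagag

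The windows differed in base composition. Cacna2d2 had 75.7% G+C and 43 CpG, Cacnb3 had 59.7% and 7 CpG, Scn10a had 51.7% and 11 CpG and Scn2b had 38.3% and 2 CpG, where the median of 32851 promoters was 52.7% and 7 CpG. The GC box occurred once in the Cacnb3 and once in the Cacna2d2 window and in 35.7% of all promoters. Neither the TATA box (13.6% of all promoters), the cyclic AMP response element (1.79%) nor the half-site (16.3%) was found in the 4 windows. The E-box CANNTG, found in 72.3% of all promoters and not capitalised here, had 3 matches in the Scn2b window, 1 each in those of Cacnb3 and Scn10a and 0 in that of Cacna2d2. The motifs searched were counted separately. The start listed for Cacnb3 lies 1488 bases from the start of the gene in the GENCODE annotation, and 2 starts are listed for it. For Scn10a, Cacna2d2 and Scn2b the distance is 290, 268 and 94 bases. The windows of Cacnb3, Cacna2d2 and Scn10a lie wholly inside the gene as annotated there, so they hold no sequence upstream of its annotated start.

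Genes that act with the channels were read from lists of 15 sodium channel partners, 17 calcium channel partners and 4 genes of the sodium leak channel. In Q140 carriers against non-carriers, 1.47% of all genes were called and 15.1% passed an unadjusted p under 0.05. Beside these shares, 0 sodium channel partners and 0 leak channel genes were called, with 2 and 0 unadjusted. Of the 17 calcium channel partners 2 were called, 1 in each direction. Rem2, an RGK-family GTPase that binds calcium channel beta subunits and reduces calcium current, rose in carriers. It had 1.61, 2.30 and 3.51 CPM in carriers, against 1.06, 1.83 and 2.54 CPM in non-carriers, and 8 of 24 carriers lay above every non-carrier (log2 fold change 0.41 ± 0.083, adjusted p = 0.0034, edgeR's quasi-likelihood test). The next were the active zone scaffolds Rims2 (-0.064 ± 0.019, adjusted p = 0.0619) and Rims1 (-0.073 ± 0.023, adjusted p = 0.0831), both without a call. The median log2 fold change of the 17 calcium channel partners was -0.044 and 5 of 17 were above 0. That of the 15 sodium channel partners was -0.0049, with 6 above 0. In the same contrast 6 of 9 astrocyte markers were called lower, with a summed level of 6638 to 7862 CPM in carriers and 7091 to 8883 CPM in non-carriers, and the part of astrocytes in these differences was not tested. Of the other marker lists, 1 gene each was lower for excitatory neurons, oligodendrocytes and pituitary, and striatal neurons had 1 gene higher and 1 lower.

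In Msh3-/- against Msh3+/+ no gene of the 3 lists was called by edgeR, beside 0.215% of all genes. Unadjusted, 2 calcium channel partners, 0 sodium channel partners and 2 leak channel genes passed, beside 14.9% of all genes. In females against males 3 of 15 sodium channel partners rose and 0 fell, beside 4.28% of all genes called (518 higher and 319 lower). These were Nfasc (0.13 ± 0.020, adjusted p = 2.7e-05) and Cntn2 (0.13 ± 0.021, adjusted p = 3e-05), adhesion molecules of the initial segment, node and juxtaparanode, and Fgf11 (0.11 ± 0.028, adjusted p = 0.0170), an intracellular fibroblast growth factor homologue. Nfasc had lowest, median and highest values of 311, 346 and 372 CPM in female and 295, 318 and 339 CPM in male libraries, and 15 of 24 females lay above every male. The estimates of all 8 oligodendrocyte markers were also above 0 in this contrast, with 4 called, and the part of oligodendrocytes in the values of these 3 genes was not tested.

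How the members varied together was described from log2 CPM after the means of the 12 combinations of group and sex were removed, so that mean differences between them do not enter. Each correlation is across 48 libraries, with a 2-sided p from 100000 permutations within those combinations, for which 1e-05 is the smallest possible value, and with Benjamini-Hochberg adjustment over 666 pairs of members or 555 pairs of a member and a marker list. The values of a pair come from the same library and share its depth scaling and its dissection. Of 666 pairs of members, 78 passed the adjusted threshold, 48 of them positive.

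The 3 strongest positive pairs held Scn8a or Scn1a with an accessory subunit. Scn8a and Cacnb4 had r = 0.824 and rho = 0.827, Scn1a and Cacnb4 had r = 0.819 and rho = 0.856, and Scn1a and Scn4b had r = 0.793 and rho = 0.773 (adjusted permutation p = 0.000605 for each r and 0.000666 for each rho). The strongest negative pairs were Scn3b with Scn4b (r = -0.859, rho = -0.839), Scn1a with Scn3b (r = -0.730, rho = -0.707) and Scn1a with Cacna1h (r = -0.728, rho = -0.740), with the same adjusted p. The 2 beta subunit genes Scn3b and Scn4b were thus negatively correlated from library to library, and without the 2 libraries farthest from the median of Scn3b the r was -0.857. For the other 5 pairs it ran between 0.764 and 0.821 or between -0.691 and -0.676 without the 2 farthest libraries. Without WT F3 and WT F4 the r of the 6 pairs was 0.765 to 0.832 for the positive and -0.842 to -0.677 for the negative ones.

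Of 555 pairs of a member and a marker score, 27 passed the adjusted threshold, 11 positive and 16 negative, in 9 of 15 lists. For parvalbumin interneurons (6 genes, Pvalb, Gad1, Gad2, Kcnc1, Lhx6 and Cox6a2, of which Gad1 and Gad2 mark all GABAergic cells), 5 members were positive and 3 negative. The largest was Scn4b (r = 0.737, rho = 0.733, adjusted permutation p = 0.00222 for r), and the positive ones included Scn1a (r = 0.616), Scn8a (0.549) and Cacna1i (0.528). Scn3b (r = -0.616), Cacna1h (-0.600) and Cacna1c (-0.513) were negative.

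For oligodendrocytes (8 genes) the largest was Cacna1c, the main cardiac and neuronal L-type channel (r = -0.766, rho = -0.800, adjusted permutation p = 0.00222, and r = -0.779 without the 2 farthest libraries). Scn3b (r = -0.660), Cacna1h (-0.619) and Scn3a (-0.539) were also negative and Scn4b was positive (0.689). The TARP genes Cacng3 (r = 0.658, rho = 0.588, adjusted permutation p = 0.00222) and Cacng7 (r = 0.591) were positively correlated with the excitatory neuron score, and Cacng4 with that of oligodendrocyte precursors (r = 0.568, rho = 0.551, adjusted permutation p = 0.0167).

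The largest correlations for the other lists were smaller. They were Cacng4 for microglia (r = 0.520, rho = 0.466), Scn3a for striatal projection neurons (r = 0.509, rho = 0.507), Scn3a for mural cells (r = -0.567, rho = -0.510), Cacna1d for astrocytes (r = -0.547, rho = -0.493) and Cacna1g for thalamic neurons (r = -0.525, rho = -0.446), with adjusted permutation p for r between 0.0257 and 0.0444. Only the r and not the rho passed the adjusted threshold for these 5. Without WT F3 and WT F4 the r of Scn3a was 0.399 with striatal projection neurons and -0.448 with mural cells. For hippocampal neurons no member passed. The largest for the remaining lists did not pass for r: Cacna1i for pituitary (r = 0.476), Cacna1d for meningeal cells (-0.353), Cacna1g for choroid plexus (-0.428, and -0.257 without the 2 farthest libraries), Scn3a for endothelial cells (-0.455) and Scn7a for blood (-0.457).

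**Figure D5:**
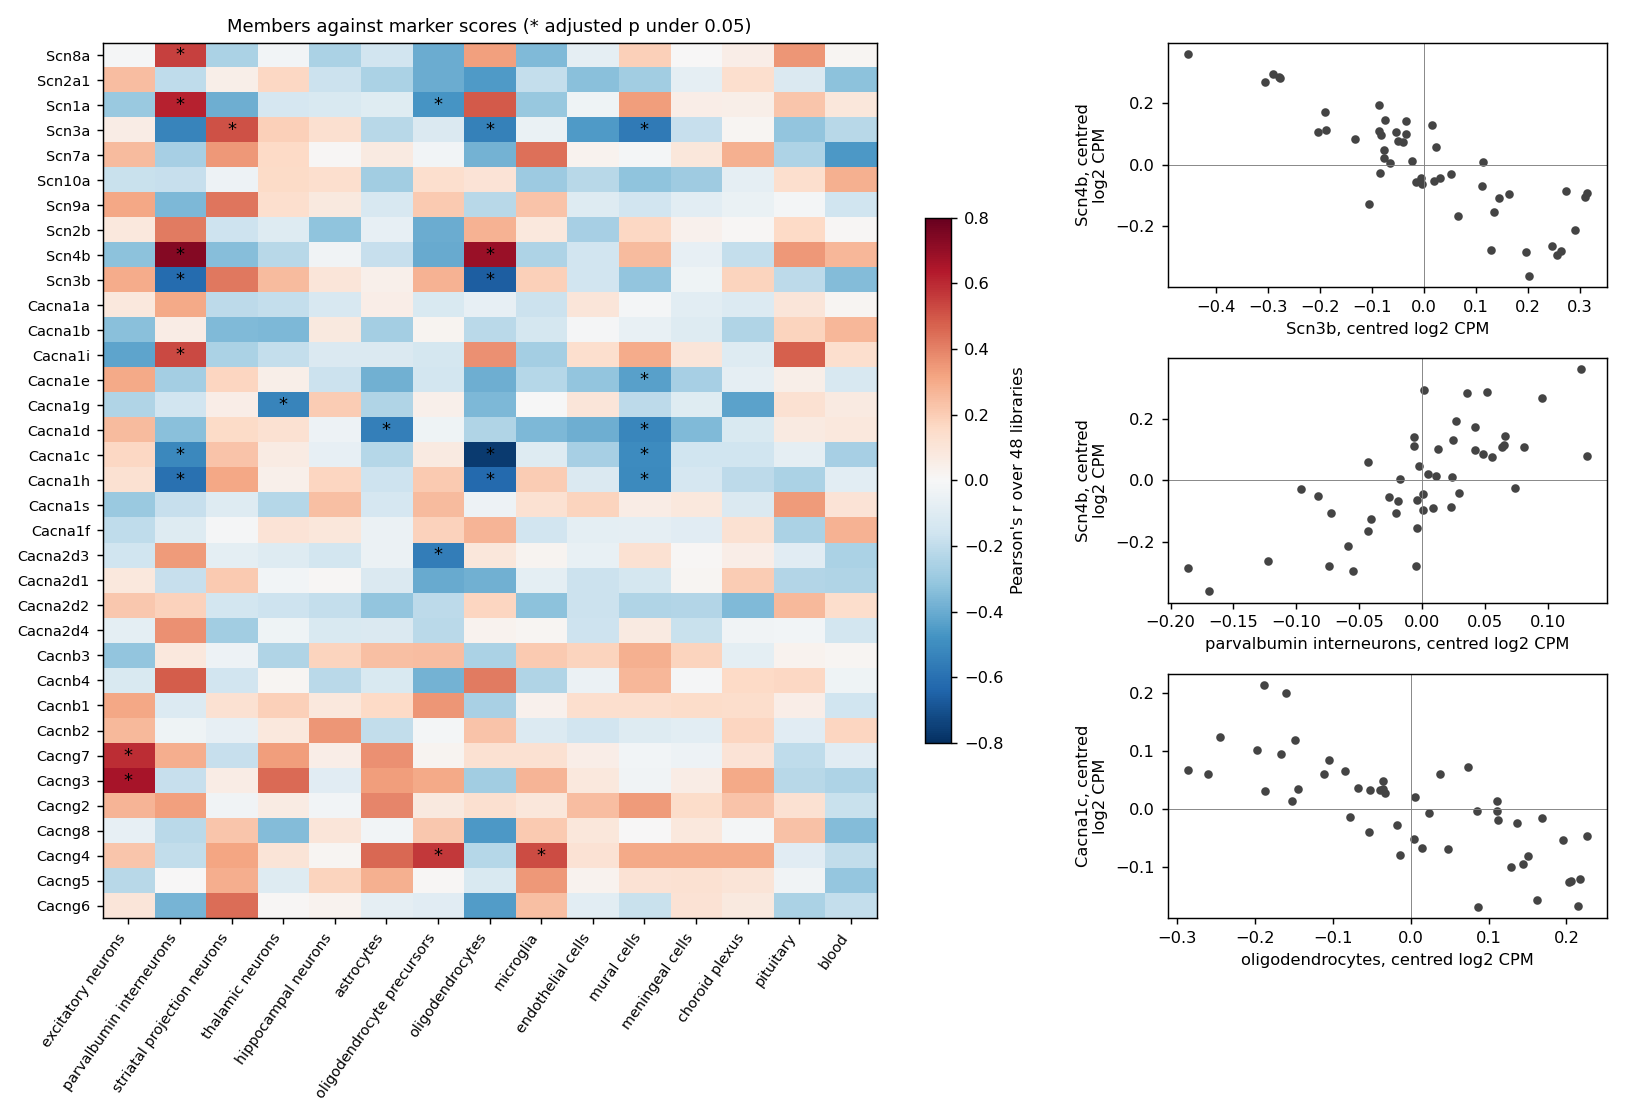
Left, Pearson's r over 48 libraries of 35 of the 37 members (rows, by family) with 15 marker scores (columns), with asterisks for an adjusted permutation p under 0.05. Right, centred log2 CPM of Scn4b against Scn3b (r = -0.859), of Scn4b against the parvalbumin interneuron score (r = 0.737) and of Cacna1c against the oligodendrocyte score (r = -0.766), 1 point per library.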

How the data were processed

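Total RNA of cerebral cortex was sequenced from 48 mice with a stranded TruSeq kit, per the labels. The deposited tables hold counts per gene and FPKM, both made by the authors. The submitters' processing notes name STAR 2.7.5c, SAMtools 1.10 and HTSeq 0.12.3 with GRCm38 (mm10). The annotation release and the strand setting are not given in the sources used here. The authors' counts entered all tests as deposited, and the deposited FPKM served only to compare levels between genes. Totals of 37657977 to 68300525 counts per library set the precision.

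Genes passed filterByExpr by group (minimum count 10, minimum total 15), which kept 19547 genes and 37 members. All 48 libraries entered 1 edgeR 4.0.16 quasi-likelihood fit, with a coefficient for each of 6 groups plus sex (TMM, robust, legacy off), and a Q140-by-sex term was added for that interaction. P-values were 2-sided and adjusted by Benjamini-Hochberg over all genes tested, with calls under 0.05. Values after ± in fold changes are standard errors. DESeq2 1.42.0 and limma 3.58.1 (voom with the prefix of the sample name as a random block) were alternatives, beside size factors, filters, the sex term, a plate column factor, a replicate block, a length trend and left-out libraries. CPM are TMM-scaled, and log2 CPM used a prior count of 0.5. Positions come from GENCODE M21 and promoters from RefSeq. The edgeR fit was tested on simulated counts, for Q140 against WT and for the averaged Q140 contrast, and the outcome is not given here. The simulated spread followed a set function of the mean count, without effects of sex, plate or name prefix. Changes were planted only in genes above a minimum mean count, which Scn10a and Cacna1f do not reach, so the simulation does not cover such low-count members. The DESeq2, limma voom and permutation tests were not tested on simulated data.

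The members and all lists were chosen with earlier results of these data known. Named were, by rule, every member with its level, in each contrast every called member and the 4 of smallest p, values by group for called members and for the 6 of smallest p in the averaged Q140 contrast, every called partner and the 4 of smallest p in that contrast, the member of largest absolute r for each marker list, and the 3 most positive and 3 most negative pairs, with Msh3 and Htt as checks of the labels. Results on a few genes that these rules name are not reported here, although the genes stay in the fits and in the counts of members.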

Additional observations from a re-analysis of the deposited data

Results flagged for a closer look

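In the group values of the 10 members given by genotype, the highest and the lowest library of each group of 8 were set against the others of that group. In none of the 60 groups examined did the gap to the nearest library exceed Dixon's 95% critical share of the range for 8 samples. A gap to the nearest library cannot pick out 2 libraries that stand apart together, as WT F3 and WT F4 did for Scn8a and Scn3b. No difference between groups in the effect of Q140 was called for a member, by the interactions with Msh3 genotype or with sex.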

How the results depend on the processing

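The counts of members called were recomputed under 12 alternatives (10 to 12 of them per comparison, since not every alternative can be applied to each) and with each library of a contrast left out. They stayed at 0 in the 7 pairwise comparisons and the 3 interactions under each one that was run. For Msh3-/- against Msh3+/+ the count was 1, but 0 without the 10 libraries with a choroid plexus or pituitary score over 3 log2 units above the median, 0 without WT F3 and WT F4 (an alternative added after seeing the data), and 0 to 1 with single libraries left out, where Q140 M4 ended the call. The cause was not tested. Leaving out only WT M2 and Msh3+/- M2, also added after seeing the data, kept it at 1. For females against males it was 5 with DESeq2, 4 with plate column as a factor or without WT M2 and Msh3+/- M2, 2 without the 10 libraries and 3 to 5 with single libraries left out (5 without Msh3+/- F2, Msh3+/- M3 or Msh3-/- M3). For Q140 carriers against non-carriers it was 0 to 1 with single libraries left out (1 without Q140 F2 or Q140 x Msh3-/- F1). None of 52 named values reversed.

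The replicate block gave 0, 1 and 3 members for the averaged Q140, Msh3 and sex contrasts, as without it. The numbers were not taken to pair the libraries, since the labels do not tie a number to a shared litter, batch or day. Only 10 of 120 same-numbered pairs had a correlation of residuals over 0.1 (-0.134 to 0.382). But 22 of 48 libraries correlated best with a library of their own number, where equal shares would give 12. Within a genotype and sex, the replicate numbers follow the order of the Mh3Q numbers in the sample names. Some same-numbered libraries share a name prefix, such as Mh3Q19 in F1 of Msh3+/-, Q140 and WT. The part of this order in the correlations was not tested. The correlation within name prefixes was 0.10. Depth limits Scn10a, Scn9a, Cacna1f, Cacna1s, Cacng6 and Scn11a, whose medians were 3 to 42 counts per library.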
